A study of Homo sapiens with 32 samples.

Results

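SOX genes encode transcription factors that bind DNA through a high mobility group (HMG) box related to that of SRY. Here 8 members of the family are described in the RNA sequencing of 2 human cell lines: SOX2 and SOX3 of group B1, SOX4, SOX11 and SOX12 of group C, SOX6 and SOX13 of group D, and SOX9 of group E. They were selected on their measured values in these libraries, by a choice that does not record which comparison was used. Their levels and changes are therefore given as a description, with no p-value for a member. Where tests over all genes called a member or did not, this is listed only and is not support. All 8 were among the 57820 genes listed for HCT116 (51996 with a symbol), and 7 were among the 11887 genes listed for HEK293, where SOX6 was not listed. The family has further members, of which 11 others were read as a separate list.

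The series deleted distal regulatory elements with Cas9 and sequenced RNA from clones grown from single sorted cells, 26 libraries in all. HCT116 is a colorectal cancer line and HEK293 a human embryonic kidney line. Every clone had received Cas9-GFP, so the controls carried it too. Control clones had also received an empty guide vector, and deletion clones guides against an element named E7, 18qNE or 18qE. In HCT116, 4 control clones and a single E7 clone were each extracted on days A, B and C (12 and 3 libraries), and 3 clones with the 18qNE deletion gave 1 library each on day A, B or A. On day D, 2 control clones and 2 clones with the 18qE deletion gave 1 library each. In HEK293, all extracted on day E, 2 control clones and 2 E7 libraries were sequenced. The titles number those E7 libraries 1 and 2 while the clone label is the same for both, so whether they are 1 clone or 2 is not known. The HCT116 E7 group is 1 clone, and effects of E7 cannot be told apart there from what is particular to that clone.

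Depth ranged from 9871667 to 14862268 gene counts per library on days A to C, from 22972412 to 24887785 on day D and from 26491576 to 34790193 in HEK293. Levels are given as CPM, the counts of a gene scaled to a common total of gene counts per library. CPM is not corrected for gene length, so levels are compared within a gene and not between genes. The labels' tissue was checked against marker lists. Summed levels of 10 epithelial genes lay between 4082 and 6749 CPM in the HCT116 controls, and 4 of these genes were listed for HEK293, at 424 to 718 CPM in its controls. Most of the HCT116 sum came from KRT8, KRT18 and KRT19, at means of 2598, 919 and 897 CPM. LGALS4, CEACAM5 and VIL1 of the same list were near 0 there, at means of 0.0957, 0.00625 and 0.0512 CPM, so the sum does not speak for them. A list of 10 genes that mark HEK293 summed to 1083 and 1164 CPM over the 7 listed in its controls, against 116 to 148 CPM in the HCT116 controls. Most of the HEK293 sum came from VIM, at a mean of 762 CPM, and NEFM averaged 0.656 CPM there. ZIC2 and DPYSL3 of the list averaged 40.0 and 77.2 CPM in the HCT116 controls. PAX2 averaged 11.4 CPM in the HCT116 controls and was not listed for HEK293, so the sum does not speak for these genes. The leukocyte list stayed at or under 3.46 CPM, and the endothelial list at or under 1.54 CPM, in every HCT116 library.

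As background, group B1 factors keep neural progenitors and pluripotent cells undifferentiated, often together with POU proteins. Group C factors act in neuronal differentiation and in many embryonic tissues. SOX9 drives cartilage formation, where it works with SOX5 and SOX6 of group D, and in the intestine it is a Wnt-dependent factor of crypt stem and Paneth cells. SOX6 and SOX13 lack a known activation or repression domain of their own and act through partners.

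Promoters of 3 members that set the lines apart or stood lower with E7, and of SOX4, which did neither, are shown first to make visible what kind of start site these values come from. RefSeq windows of 300 bases (250 before to 50 after the transcription start, build GRCh38.p14) were found for 6 of the 8 members. The deposited counts were made on hg19, and no coordinate of that build is given. SOX2 and SOX3 were near or at 0 in HCT116, SOX4 was well detected in both lines, and SOX12 was lower in the E7 libraries of both. Capitals mark motifs found on either strand, none overlapping another in the windows shown. The SOX core was searched as ACAAAG and with the variant letters ACAATG, the TATA box with the letters TATAAA, the CCAAT box by the letters of its name (ATTGG where it lies on the strand not shown), and the E-box with the letters CACGTG.
SOX2, chr3:181711675-181711974, plus strand: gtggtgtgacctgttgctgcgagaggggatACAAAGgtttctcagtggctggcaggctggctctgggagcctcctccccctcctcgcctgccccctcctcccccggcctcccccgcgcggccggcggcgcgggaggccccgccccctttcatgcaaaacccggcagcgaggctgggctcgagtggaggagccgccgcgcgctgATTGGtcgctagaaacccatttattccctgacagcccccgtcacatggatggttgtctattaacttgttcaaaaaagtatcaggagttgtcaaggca
SOX3, chrX:140505020-140505319, minus strand: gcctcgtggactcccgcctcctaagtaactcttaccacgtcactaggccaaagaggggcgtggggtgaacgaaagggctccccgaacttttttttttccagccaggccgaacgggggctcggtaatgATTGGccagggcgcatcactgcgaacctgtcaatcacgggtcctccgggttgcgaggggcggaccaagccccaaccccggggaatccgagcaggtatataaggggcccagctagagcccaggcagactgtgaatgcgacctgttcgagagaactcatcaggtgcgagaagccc
SOX4, chr6:21593501-21593800, plus strand: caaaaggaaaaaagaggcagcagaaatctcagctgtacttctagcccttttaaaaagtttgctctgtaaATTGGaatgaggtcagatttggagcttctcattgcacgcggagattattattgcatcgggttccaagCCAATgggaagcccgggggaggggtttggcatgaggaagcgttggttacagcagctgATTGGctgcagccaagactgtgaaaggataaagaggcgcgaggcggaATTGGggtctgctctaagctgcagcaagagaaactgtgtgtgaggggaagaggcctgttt
SOX12, chr20:325302-325601, plus strand: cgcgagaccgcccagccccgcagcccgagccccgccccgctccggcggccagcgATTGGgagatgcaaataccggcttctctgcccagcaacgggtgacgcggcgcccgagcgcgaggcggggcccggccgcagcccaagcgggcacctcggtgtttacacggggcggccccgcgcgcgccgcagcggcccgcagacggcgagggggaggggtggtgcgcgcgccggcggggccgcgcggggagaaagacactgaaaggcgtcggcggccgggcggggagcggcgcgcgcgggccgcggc

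The SOX2 window held 20 CpG dinucleotides, a SOX core 220 bases before the start and a CCAAT box 47 bases before it. The SOX3 window also held 20 CpG, with a CCAAT box 123 bases before the start. In the SOX4 window there were 8 CpG and 4 CCAAT boxes, at 181, 114, 57 and 10 bases before the start. The SOX12 window held 54 CpG, more than 99.5% of all promoters, whose median was 14, and a CCAAT box at 196 bases before the start. A CCAAT box stood in 34.6% of the 34796 promoters of the table, a SOX core in 24.5%, a TATA box in 11.6% and an E-box in 7.2%. These matches are a description of the letters in each window and not evidence of binding.

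The group B1 genes divided the lines. SOX2, a pluripotency and neural progenitor factor, was at 21.7 and 21.4 CPM in HEK293 controls 1 and 2, from 618 and 568 counts. In HCT116 it had 44 counts over all 22 libraries, with 0 to 9 in each and 5 libraries at 0. HEK293 control 1 stood 159.6-fold over the pooled HCT116 level (exact 95% interval 117 to 222, which covers counting error only), and control 2 158-fold (116 to 219). SOX3, its X-linked relative, was at 5.76 and 7.29 CPM in the same controls and at 0 counts in all 22 HCT116 libraries. Against a floor of 3 counts over all HCT116 libraries, 0.00927 CPM, SOX3 was at least 621-fold and 786-fold higher in controls 1 and 2.

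The few SOX2 reads of HCT116 lay unevenly. Day A held 16 of the 22 counts of the control clones, 9 of them in control clone 2, and days B and C together held 6. None of the 3 E7 libraries had a SOX2 count, so its level was at least 2.00-fold lower than in the controls against a floor of 3 counts over the group. At this depth such a level is close to the limit of detection. Among the 18qNE clones the counts were 1, 1 and 7, and the 18qE clones had 4 each against 3 and 2 in the day D controls.

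With E7 deleted in HEK293, SOX2 stood higher and SOX3 lower. SOX2 was at 30.4 and 32.5 CPM in E7 libraries 1 and 2, both above both controls. The pooled level was 1.46-fold that of the controls (1.35 to 1.56), with a fitted log2 change of 0.48 (SE 0.18). SOX3 was at 3.42 and 4.45 CPM, both below both controls. Its log2 change was -0.80 (SE 0.30), and its pooled level was 0.602 times that of the controls (0.511 to 0.709). In this comparison 50.1% of 10956 genes did not overlap.

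SOX11, a group C factor of immature neurons, gave the widest range of all members. It was at 355 CPM (10101 counts) in HEK293 control 1 and 104 CPM (2755 counts) in control 2. The E7 clone or clones held 1.29 CPM (45 counts) and 0.764 CPM (24 counts). All 22 HCT116 libraries had 0 counts. The controls themselves thus differed 3.41-fold (3.27 to 3.56), while both E7 libraries lay far below either. Pooled over the E7 libraries, SOX11 was 340.5-fold lower than in control 1 (269 to 438) and 99.8-fold lower than in control 2 (78.6 to 129). Epithelial marker genes and NEFM also stood higher in these E7 libraries, with values given among the markers. The fitted log2 change was -7.83 (SE 0.78), the 3rd largest in size among 11806 genes tested. Even the E7 libraries stayed at least 112-fold over the HCT116 floor, and controls 1 and 2 at least 38256-fold and 11215-fold.

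**Figure D1:**
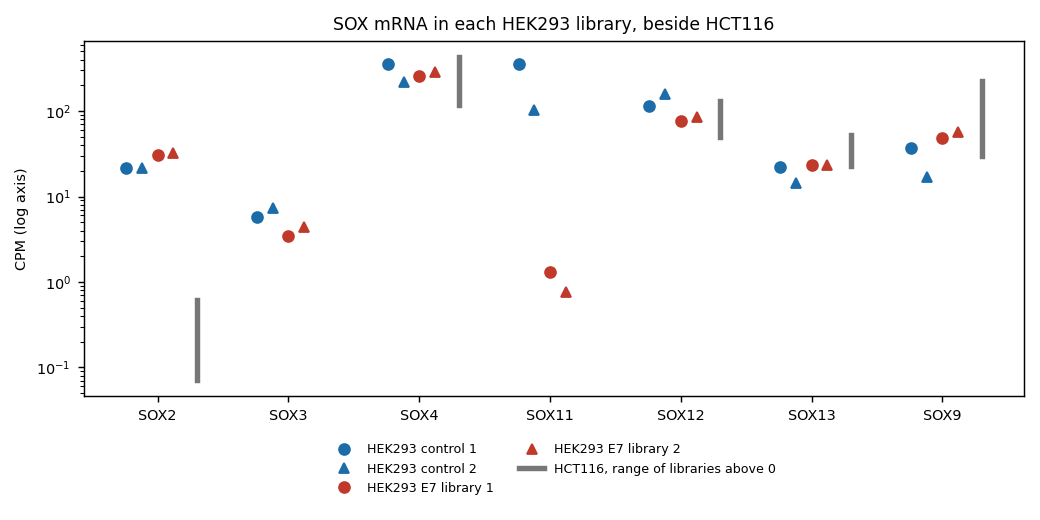
CPM on a log axis for the 7 members listed in HEK293, with each of the 2 control libraries (blue) and 2 E7 libraries (red) as a point. Grey bars span the HCT116 libraries above 0 and are absent for SOX3 and SOX11, which had no count there. SOX11 stands at 355 and 104 CPM in the controls and at 1.29 and 0.764 CPM with E7.

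SOX12, a group C factor with a weaker activation domain than its relatives, stood lower with E7 in both lines. In HCT116 the 12 control libraries ranged from 88.1 to 118 CPM with a median of 102. The E7 clone was at 73.1, 53.2 and 49.8 CPM on days A, B and C, below every control library. By day, E7 was at 0.643, 0.526 and 0.534 times the mean of the 4 controls. The fitted log2 change was -0.78 (SE 0.09). In HEK293, the controls were at 114 and 159.9 CPM and the E7 libraries at 76.2 and 85.7 CPM, again with no overlap. Groups did not overlap for 18.3% of 11272 genes in HCT116 and 50.1% of 10956 in HEK293. The HEK293 log2 change was -0.83 (SE 0.25). The difference of the 2 changes, -0.04 on the log2 scale (SE 0.26), was smaller than its error.

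With the 18q deletions SOX12 lay below the controls of the same day. The 18qNE clones were at 98.3, 77.6 and 98.5 CPM on days A, B and A. The 4 controls ranged from 111 to 118 CPM on day A and from 93.6 to 107 CPM on day B. Each 18qNE clone was thus below all controls of its day, though over both days the ranges overlapped. How many of all genes lie apart by day was not counted, so nothing is read from it. The log2 change was -0.21 (SE 0.10). Day D controls were at 129 and 103 CPM and the 18qE clones at 98.5 and 98.2 CPM, a log2 change of -0.20 (SE 0.16). In that comparison 26.7% of 10978 genes did not overlap. E7 and 18qNE were compared with the same control clones, so their estimates are not independent.

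SOX4, the group C member best known from epithelia and carcinomas, showed no clear shift. The HCT116 controls ranged from 148 to 346 CPM (median 239.8), and the E7 clone at 339, 282 and 212 CPM lay inside that range. Its log2 change was 0.23 (SE 0.13). The 18qNE clones were at 228, 284 and 430.3 CPM on days A, B and A. The controls ranged from 271 to 346 CPM on day A and from 154 to 258 CPM on day B. The log2 change, against controls summed over both days, was 0.28 (SE 0.19) and came to -0.02 without clone 3. Days were thus not balanced in it. The 18qE clones were at 165 and 240.1 CPM against 176 and 119 CPM, a log2 change of 0.49 (SE 0.23). In HEK293, the controls were at 358 and 219.9 CPM and the E7 libraries at 256 and 286 CPM, between them. That change was -0.15 (SE 0.26), and it had the other sign, 0.19, without control 1.

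SOX9, the group E member, stood out in the HCT116 E7 clone. It was at 228, 168 and 219 CPM on days A, B and C, while the 12 control libraries ranged from 29.7 to 118 CPM with a median of 53.8. The log2 change was 1.71 (SE 0.11), and the pooled level was 3.23-fold that of the controls (3.13 to 3.33). In HEK293 the controls were at 36.8 and 16.8 CPM and the E7 libraries at 48.4 and 57.4 CPM. There the log2 change was 0.93 (SE 0.37), or 1.43-fold over control 1 and 3.14-fold over control 2. E7 libraries lay above every control library of their line in both lines, with the 2 HEK293 controls 2.19-fold apart. Groups did not overlap for 18.3% of 11272 genes in HCT116 and 50.1% of 10956 in HEK293. The difference of the log2 changes between lines was -0.77 (SE 0.43).

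SOX9 also varied with the day in the controls. Control clones 1 to 4 were at 85.0, 118, 85.8 and 83.5 CPM on day A. On day B they were at 38.5, 37.6, 29.7 and 65.0 CPM, and on day C at 47.2, 50.9, 46.0 and 56.7 CPM. All 4 clones were highest on day A, by 1.98-fold, 2.67-fold, 2.27-fold and 1.37-fold over the mean of their own days B and C. In the E7 clone that ratio was 1.18. E7 over the mean control therefore ran from 2.45 on day A to 3.93 on day B and 4.36 on day C. The antisense gene SOX9-AS1, looked up after the values were seen, had 14 to 26 counts in the day A controls. It had 1 to 6 counts in those of day B and 1 to 4 in those of day C. The E7 clone had 50, 20 and 10 counts on days A, B and C. Which strand was counted is not stated. Reads of the pair cannot be told apart, though SOX9-AS1 never passed 50 counts in any HCT116 library.

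With the 18q deletions SOX9 lay within, below or above the controls of the same day. The 18qNE clones were at 116, 45.7 and 76.0 CPM on days A, B and A. The controls ranged from 83.5 to 118 CPM on day A and from 29.7 to 65.0 CPM on day B. Clones 1 and 2 lay inside the range of their day, and clone 3 lay below it. The log2 change was 0.21 (SE 0.24) and turned to -0.16 without clone 1. The 18qE clones were at 65.8 and 63.8 CPM, both above the day D controls at 52.8 and 47.8 CPM. That log2 change was 0.40 (SE 0.15), and 26.7% of 10978 genes likewise did not overlap there. Ordered by group mean, SOX9 was at 205 CPM (SD 32.3, 3 libraries of 1 clone) in HCT116 E7, 79.2 (SD 35.1, n = 3) in 18qNE, 64.8 (SD 1.40, n = 2) in 18qE and 62.0 (SD 26.2, 12 libraries of 4 clones) in the controls. It was at 52.9 (SD 6.40, 2 libraries) in HEK293 E7, 50.3 (SD 3.51, n = 2) in the day D controls and 26.8 (SD 14.2, n = 2) in the HEK293 controls. Below the E7 clone of HCT116, each neighbouring pair of groups in this order differed by less than the larger SD, apart from the HEK293 controls.

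**Figure D2:**
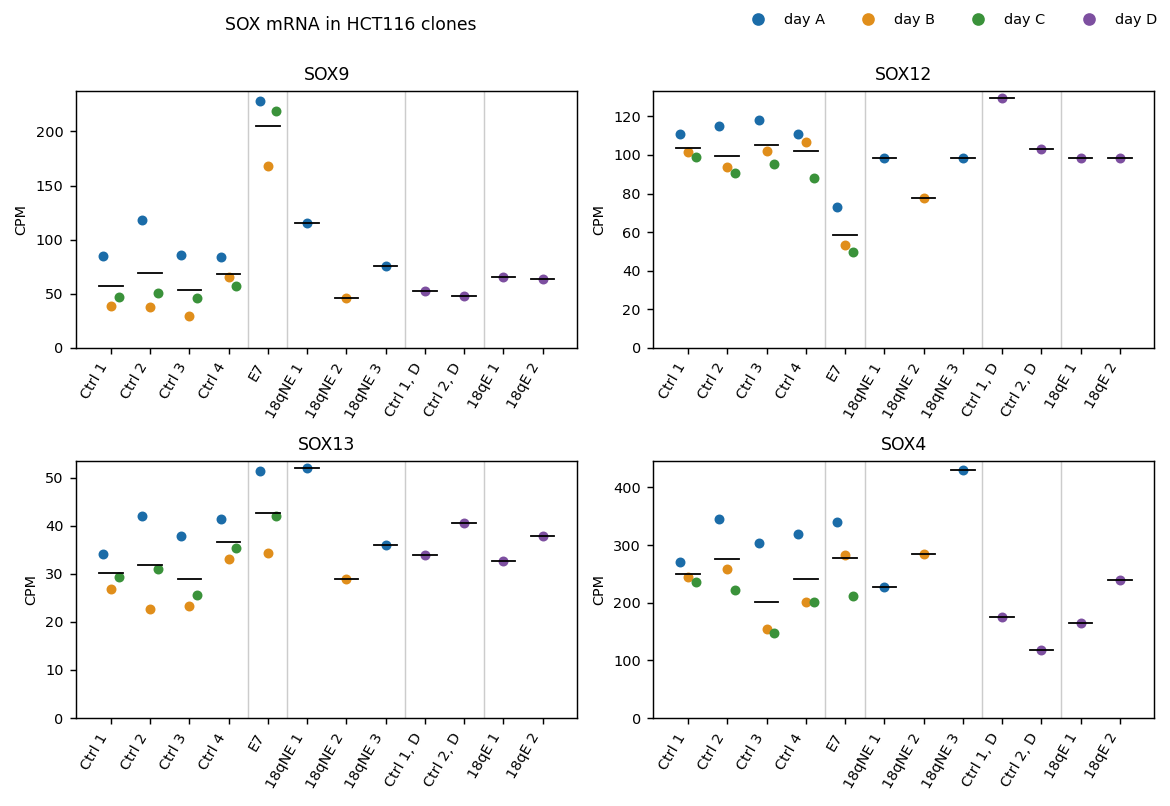
CPM of the 4 members above 5 CPM in HCT116, by clone, with 1 point per library coloured by extraction day and a line at each clone's mean. The E7 clone lies above all controls for SOX9 (168 to 228 CPM) and below all for SOX12 (49.8 to 73.1 CPM), and overlaps them for SOX13 and SOX4.

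SOX13, a group D factor, was somewhat higher with E7 on each day. The HCT116 controls ranged from 22.6 to 42.0 CPM (median 32.1), and the E7 clone was at 51.4, 34.3 and 42.0 CPM on days A, B and C. On each day E7 was above all 4 controls of that day, by 1.32-fold, 1.30-fold and 1.38-fold over their mean, but across days the groups overlapped. How many of all genes lie apart by day was not counted. The log2 change was 0.43 (SE 0.12). In HEK293 the controls were at 21.9 and 14.6 CPM and the E7 libraries at 23.3 and 23.4 CPM, a log2 change of 0.30 (SE 0.24) with E7 library 1 only just over control 1. The 18qNE clones were at 52.0, 29.0 and 36.0 CPM on days A, B and A (log2 change 0.27, SE 0.17, days not balanced). The controls ranged from 34.0 to 42.0 CPM on day A and from 22.6 to 33.1 CPM on day B. The 18qE clones were at 32.6 and 37.9 CPM against 34.0 and 40.7 CPM (-0.05, SE 0.17). SOX6, the chondrocyte and red cell factor of the group, had 101 counts over 22 HCT116 libraries, 0 to 17 in each. Its log2 change with E7 was -0.45 with an SE of 0.72, so no difference was detectable at this depth.

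**Figure D3:**
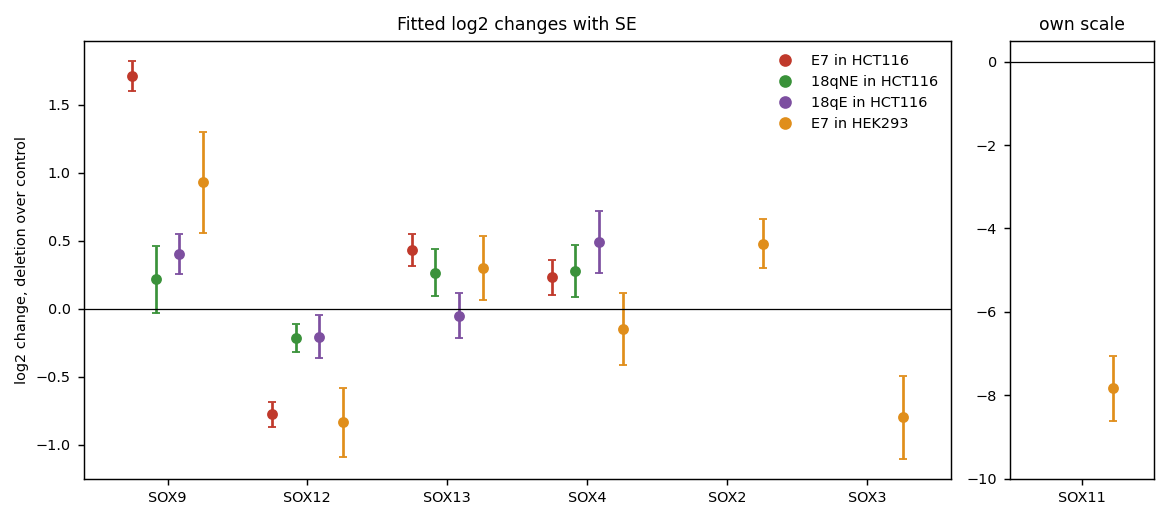
Fitted log2 changes of deletion over control, with the standard error as the bar, for 7 members in 4 comparisons, of which E7 and 18qNE in HCT116 share their control clones. With E7 in HCT116 and HEK293, SOX9 is at 1.71 and 0.93 and SOX12 at -0.78 and -0.83, and SOX11 has its own axis.

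Counts of called genes set these values against the whole table. In edgeR's quasi-likelihood test at a Benjamini-Hochberg adjusted p of 0.05, E7 in HCT116 called 13.9% of 17664 genes, 1339 higher and 1117 lower. Among the 5 members tested, SOX9, SOX12 and SOX13 were called, and SOX2, SOX3 and SOX11 were too low to test. The number of genes called was 2456, and 1477 or 1499 without control clone 1 or 2. SOX13 kept its call in 7 of 12 alternative settings. Set against the 18qNE clones instead of the controls, E7 called 79 genes and no member, with SOX9 at 1.33 (SE 0.40) and SOX12 at -0.53 (SE 0.24). Groups did not overlap for 18.3% of the 11272 genes at 5 CPM or more, and for 2 of 4 members, SOX9 and SOX12. E7 in HEK293 called 0.0254% of 11806 genes (3 genes, with 1487 at an unadjusted p under 0.05 and 463 by DESeq2) and 0 of 7 members. It called 6210 genes without control 1, 1914 without control 2, and 74 and 77 without E7 library 1 and 2. The groups did not overlap for 50.1% of 10956 genes there, and for 6 of 7 members, all but SOX4. Since these contrasts may have chosen the members, nothing is read from the calls or counts of members, in these or the other comparisons. Over 9 alternative settings the log2 change of SOX11 in HEK293 ran from -8.44 to -6.75.

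The 18q deletions called 0% of 15524 genes (18qNE, with 505 at an unadjusted p under 0.05 and 13 by DESeq2) and 0% of 15261 genes (18qE, 391 and 19), and none of the 4 members tested in each. Without 18qE clone 1 or 2, 107 and 132 genes were called, and 1 without day D control 1. Values of the 18qE clones and day D controls did not overlap for 26.7% of 10978 genes, and for SOX9 and SOX12 among the 4 members. The E7 effect differed between the lines for 3.38% of 11849 genes and for none of SOX4, SOX9, SOX12 and SOX13, a count of 401 genes that ran from 35 without HEK293 E7 library 1 to 4701 without HEK293 control 1. The other HEK293 libraries gave 39 without E7 library 2 and 2081 without control 2, and leaving out HCT116 control clones 1 to 4 gave 92, 97, 182 and 171. SOX2 was tested there too and was not called. Its fitted difference has no readable size, since the HCT116 E7 clone had 0 counts. HEK293 and HCT116 controls differed for 57% of 11805 genes. Of the 7 members listed for both, 5 were called there, SOX2, SOX3 and SOX11 higher in HEK293 and SOX9 and SOX13 lower. The log2 difference of HEK293 over HCT116 was -1.48 (SE 0.28) for SOX9 and -1.05 (SE 0.17) for SOX13. It was 0.002 (SE 0.19) for SOX4 and 0.19 (SE 0.16) for SOX12, whose values without HEK293 control 1 were -0.34 and 0.45. Line, extraction day and the kind of count table cannot be told apart in that comparison.

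Among the HCT116 controls, the clones differed for 7.89% of 14685 genes and for none of SOX4, SOX9, SOX12 and SOX13. That was 1158 genes, and 308 without day C. The days differed for 39.1% of 14441 genes and for all 4 members, which was 5652 genes, with 2216 and 3492 without control clone 2 or 3. SOX4 averaged 310.0 CPM (SD 31.1, n = 4 clones) on day A, 214 (SD 47.1) on day B and 202 (SD 38.4) on day C. SOX12 went from 114 (SD 3.64) to 101 (SD 5.40) and 93.3 (SD 4.95), and SOX13 from 38.8 (SD 3.70) to 26.4 (SD 4.77) and 30.4 (SD 4.03). All 4 members thus had their highest control mean on day A.

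In the E7 clone of HCT116 some genes of a cartilage list stood higher, while the others tested had negative estimates. Of 16 genes on a list of SOX9, SOX5 and SOX6 cartilage targets, 8 could be tested, 4 rose and 0 fell, where 13.9% of all genes were called, with a median log2 change of 0.34 against -0.01 over all genes. COL9A3, a chain of type IX collagen, had 359.5, 345 and 300.1 CPM in the E7 clone and 14.2 to 39.2 CPM in the controls. Its log2 change was a rise of 3.93 (SE 0.20, edgeR adjusted p = 7.47e-05). COL9A3 was also called between the control clones (edgeR adjusted p = 0.0129) and between their days (edgeR adjusted p = 0.0157). COL9A2, which encodes a partner chain, was at 7.06, 5.97 and 4.70 CPM against 2.33 to 3.59 CPM, and COL11A2 of type XI collagen at 11.6, 12.6 and 9.49 CPM against 4.18 to 8.95 CPM. On the log2 scale they rose by 1.10 (SE 0.18, edgeR adjusted p = 0.00722) and by 0.84 (SE 0.18, edgeR adjusted p = 0.0213). MIA, a secreted cartilage protein, had 28, 30 and 28 counts in the E7 libraries and 2 counts over all 12 controls, a pooled ratio of 157 (42.2 to 1320.0). It could be tested through the E7 clone alone. MIA could thus only be called as a rise, and its place among the 4 is not read as support. The remaining tested genes of the list had negative estimates and were not called. FGFR3, a growth factor receptor of the growth plate, was at -0.55 on the log2 scale (edgeR adjusted p = 0.0575). MATN1 was at -1.48 (SE 0.71), MATN4 at -0.30 (SE 0.52) and CHST11 at -0.16 (SE 0.13). COL2A1, ACAN, HAPLN1 and COMP had 0 to 2 counts over the E7 libraries and could not be tested. Without control clone 2, 3 of 7 genes rose, and against the 18qNE clones 0 of 7 did.

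The 4 called genes were also read with the other deletions. COL9A3 was at 12.8, 15.6 and 63.0 CPM in the 18qNE clones, so clone 3 exceeded the controls, and at 19.6 and 30.9 CPM in the 18qE clones against 21.8 and 20.6 CPM. COL9A2 was at 1.67 to 3.98 CPM in the 18qNE clones. In the 18qE clones it was at 5.28 and 6.03 CPM, above the day D controls at 3.40 and 4.27 CPM (log2 0.60, SE 0.29). Groups did not overlap for 26.7% of 10978 genes in that comparison. COL11A2 was at 4.39 to 7.81 CPM in the 18qNE clones. It was at 4.55 to 6.71 CPM in the 18qE clones against 4.70 to 6.39 CPM in the day D controls. MIA had no count in the 18qNE clones and 1 count in the 18qE clones. No gene of the list was called for 18qNE (6 tested) or 18qE (5 tested). HEK293 files listed 3 of the 16, none of them a type IX or XI collagen or MIA, and 0 were called with E7. The largest of the 3 changes was that of FGFR3, at 36.0 to 47.4 CPM in the controls and 16.4 to 18.9 CPM in the E7 libraries (log2 -1.32, SE 0.24, edgeR adjusted p = 0.211).

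**Figure D4:**
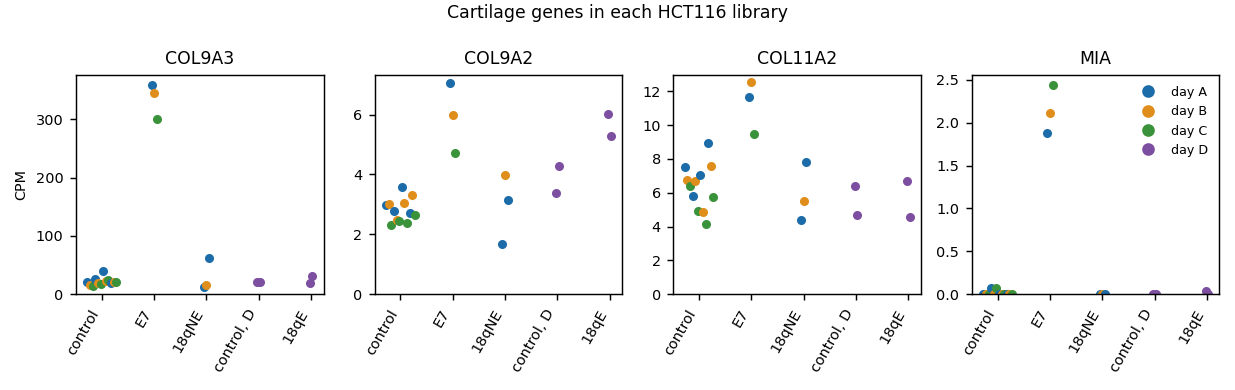
CPM of 4 cartilage genes in every HCT116 library, by group and coloured by day. All 3 E7 libraries lie above all 12 controls of days A to C for each gene, and COL9A3 reaches 63.0 CPM in 1 18qNE clone.

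Genes of the intestinal crypt and of Wnt signalling, the setting in which SOX9 acts in the colon, went both ways with E7 in HCT116. Of 20 listed genes 13 could be tested, 1 rose and 2 fell (3 of 13, beside 13.9% of all genes), and the median was -0.17. NOTUM, a secreted Wnt inhibitor and Wnt target, was at 18.7 to 26.9 CPM in E7 and 3.80 to 16.0 CPM in the controls, and rose by 1.38 (SE 0.16, edgeR adjusted p = 0.00199). EPHB3, an ephrin receptor that positions crypt cells, was at 3.92 to 4.78 CPM against 7.56 to 18.0 CPM, and fell by 1.24 (SE 0.21, edgeR adjusted p = 0.00931). NKD1, a Wnt feedback inhibitor, fell by 0.55 (SE 0.14, edgeR adjusted p = 0.0424). No gene of this list was called for 18qNE, 18qE or E7 in HEK293, of 12, 12 and 9 tested. The largest in HEK293 were CD44 at 1.48 (SE 0.35) and CDX2 at -1.50 (SE 0.36), both with an edgeR adjusted p of 0.242.

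Among other SOX genes, 1 of 5 tested was called with E7 in HCT116, beside 13.9% of all genes, and nothing is read from this count. Of 11 listed, SOX1, SOX5, SOX14 and SOX17 had no count in any HCT116 library and 5 could be tested for E7. SOX8, a group E relative of SOX9, was at 2.35 to 3.02 CPM on the 3 days of E7 and at 10.9 to 21.5 CPM in the controls. It fell by 2.48 (SE 0.31, edgeR adjusted p = 0.00272), and its level in the 18qNE clones was 10.5 to 14.4 CPM. SOX8 also differed between the control clones (edgeR adjusted p = 0.0043), where 7.89% of 14685 genes were called. The next values are those of the E7 clone again. In the E7 clone SOX9 thus lay above its control range and SOX8 below its own. In HEK293, 2 of the 11 could be tested and 0 were called, beside 0.0254% of 11806 genes. SOX18 was at 5.83 and 7.74 CPM in the controls and 2.27 and 2.61 CPM in E7 (log2 -1.55, SE 0.31, edgeR adjusted p = 0.224). SOX15 was at 2.23 to 2.53 CPM in the controls and 4.63 to 4.84 CPM in E7 (log2 0.93, SE 0.27, edgeR adjusted p = 0.287).

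Targets of the neural SOX groups were read from 2 lists, beside the 13.9% of all genes called with E7 in HCT116, and nothing is read from their counts. In HCT116 E7, 2 of 9 tested genes on the list of SOXB1 partners and neural progenitor genes fell and 0 rose (median -0.05). SALL4, a pluripotency factor, fell by 2.28 (SE 0.35, edgeR adjusted p = 0.006) and NES, an intermediate filament of neural progenitors, by 0.56 (SE 0.15, edgeR adjusted p = 0.0499). Of 10 tested SOXC targets and immature neuron genes 1 fell and 0 rose (median 0.13). That gene was DPYSL3, a growth cone protein, at 4.64 to 6.80 CPM against 69.3 to 89.4 CPM (log2 -3.78, SE 0.14, edgeR adjusted p = 1.56e-05). With E7 in HEK293, where SOX11 was below the controls, 0 of 10 genes on either list were called, beside 0.0254% of all genes. The 2 lists had medians of -0.18 and -0.44 against -0.01 over all genes. POU3F3, a POU partner of SOX2, was at 123.3 to 123.7 CPM in the controls and 60.2 to 69.5 CPM in E7 (log2 -0.997, SE 0.19, edgeR adjusted p = 0.213). INSM1, a neuroendocrine factor, was at -1.26 (SE 0.52) and CRMP1 at -1.47 (SE 0.81), and DPYSL3 was at 118 to 119.9 CPM in the controls and 133 to 139 CPM in E7. The change of DPYSL3 differed between lines by 3.93 (SE 0.19, edgeR adjusted p = 0.000108).

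Between the lines, 57% of all genes tested were called, and which list genes could be tested depended on the shorter HEK293 table. NES, SALL4 and POU5F1 had reads in the HCT116 controls (4497, 344 and 121 counts) and were not listed for HEK293. POU3F3, SALL1 and SALL2 had 0 counts in the HCT116 controls and could be tested through HEK293 alone. Of the 10 SOXB1 partners and progenitor genes that could be tested, 8 were higher in HEK293 and 1 lower, a split from which no direction of the list is read. CDH2, LIN28B, POU3F2 and POU3F3 averaged 151, 128, 60.2 and 123.5 CPM in the HEK293 controls and at most 0.190 CPM in the HCT116 controls. Of 10 SOXC targets, 5 were higher and 4 lower. COL2A1, the type II collagen gene that SOX9 activates in chondrocytes, averaged 48.8 CPM (SD 29.1, n = 2) in HEK293 and 0.0887 CPM in HCT116, the line with more SOX9. TCF7L2, a Wnt effector that SOX proteins bind, averaged 31.3 CPM (SD 0.127) in HEK293 and 203 CPM (SD 32.2) in HCT116, a log2 difference of HEK293 over HCT116 of -2.94 (SE 0.13, edgeR adjusted p = 5.7e-06).

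Of 20 listed cofactors and modifiers of SOX proteins all could be tested, and for E7 in HCT116 1 rose and 0 fell, beside 13.9% of all genes called. It was WWP2, a ubiquitin ligase whose gene is a SOX9 target in cartilage, at 95.2 to 114 CPM against 47.5 to 66.1 CPM (log2 0.93, SE 0.07, edgeR adjusted p = 0.000433). In HEK293 it was at 40.6 to 52.9 CPM in the controls and 33.3 to 38.9 CPM in E7, and the change differed between lines by -1.35 (SE 0.19, edgeR adjusted p = 0.0145). No cofactor was called for 18qNE, 18qE or E7 in HEK293.

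Markers of other cells in the E7 clone are given beside these results. VIM, an intermediate filament of mesenchymal cells and of HEK293, was at 18.1 to 26.0 CPM in E7 and 0.155 to 1.61 CPM in the HCT116 controls. The HEK293 list as a whole summed to 64.9 to 80.6 CPM in E7, below the 116 to 148 CPM of the controls (DPYSL3 is also on it), and CDH2, POU3F3, SOX3 and SOX11 were at 0 counts in all 3 E7 libraries. CDH1, the epithelial cadherin, was at 44.8 to 53.6 CPM against 51.3 to 114 CPM, and KRT19 at 1076 to 1262 CPM against 772 to 1064 CPM. The summed epithelial list overlapped, at 4437 to 5971 CPM in E7. Fibroblast genes summed to at most 22.1 CPM in E7 against 17.2 to 29.6 CPM, and none of that list was called. In the leukocyte list, 2 genes were called at low levels. LYZ was at 0.843 to 2.09 CPM against 0.0750 to 0.761 CPM (log2 1.93, SE 0.30, edgeR adjusted p = 0.00621), and CD8A at 0.348 to 0.606 CPM against 1.09 to 2.35 CPM (log2 -1.63, SE 0.37, edgeR adjusted p = 0.0262). The part of these genes in the SOX values was not tested.

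Markers also differed in the HEK293 E7 libraries, where SOX11 was below the HEK293 controls. The 4 listed epithelial genes summed to 1011 to 1157 CPM with E7 and 424 to 718 CPM in the controls, and 0 of 4 were called. The HEK293 list summed to 1305 to 1352 CPM with E7 and 1083 to 1164 CPM in the controls, and 1 of its 7 listed genes was called. That gene was NEFM, a neurofilament subunit, at 28.7 to 35.8 CPM against 0.632 to 0.679 CPM (log2 5.54, SE 0.28, edgeR adjusted p = 0.0198). INA, a related neuronal filament, was at 74.3 to 77.2 CPM against 7.13 to 30.4 CPM (log2 1.97, SE 0.63, edgeR adjusted p = 0.326). The part of these markers in the HEK293 SOX values was not tested.

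Genes with the most similar pattern were sought over the 8 HCT116 clones of days A to C, by Pearson correlation of log2 CPM over 11065 genes. They are given as a description, since the points share libraries, depth and 1 E7 clone that lies apart. SOX9 was most like DNMBP (r = 0.992) and TFE3 (0.989), and SOX12 most like RPL30 (0.989) and ZNF814 (0.976). SOX13 was most like PAQR5 (0.990) and ANKH (0.982), and SOX4 most like DCK (0.976) and ZNF100 (0.972). Between members, SOX9 and SOX13 had r = 0.81 and SOX9 and SOX12 r = -0.62. RPL30 is a ribosomal protein gene with near-identical copies, so its own level is uncertain.

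Neighbouring genes were looked at after the values were seen. With E7 in HCT116, the median log2 change of the 20 nearest tested genes was -0.13 around SOX9 and -0.09 around SOX13, and that of 12 genes around SOX12 was -0.17. In HEK293 the medians were -0.14 around SOX11 (20 genes, from -1.06 to 0.72) and -0.36 around SOX12 (11 genes). The SOX11 change of -7.83 lay far outside the range of its neighbours. The SOX9 change of 1.71 (SE 0.11) was only just over its highest neighbour, at 1.61, and its lowest was at -7.74. Of the 20 neighbours of SOX9, 5 were called, beside 13.9% of all genes. Since the members were selected on measured values, nothing is read from these differences.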

How the data were processed

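RNA was sequenced from 26 clonal libraries of HCT116 and HEK293. The deposited values are raw read counts of each gene. The submitters' processing notes name the build hg19 and, in no order, HTSeq 0.6.1, TopHat2, BWA 0.6.2, Partek 3, bedtools, bcl2fastq and CASAVA. No source used here gives the strand setting, so overlapping or antisense genes can share reads. The 6 chromatin immunoprecipitation samples were not analysed here. HEK293 files list fewer genes, by a rule that no source used here states, and comparisons between lines used genes of both files.

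The clone was the replicate in the comparisons of deletions and of lines. HCT116 libraries were summed per clone over days A to C for E7, with the controls over days A and B for 18qNE. The 18qNE clones are of days A, B and A, so days were not balanced there. For the single E7 clone the spread is taken from the controls, and p-values measure the spread between clones, which in HEK293 may be technical for E7. Counts were tested with edgeR 4.0.16 (quasi-likelihood, TMM scaling, filterByExpr with a minimum count of 10) in R 4.3.3, adjusted by Benjamini-Hochberg over all genes tested with a threshold of 0.05, after the scripts were tested on simulated data. DESeq2 1.42.0 was an alternative. Others were no filter, library size alone, leaving out replicates and blocks. Exact 95% intervals of pooled ratios and floors of 3 counts cover counting error only. Like patterns used log2 of CPM plus 1, for genes of at least 5 CPM.

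Members and gene lists were chosen with earlier results of these data known. All 8 members are named throughout. From each list the text names up to 4 called genes with the smallest adjusted p, or, where none was called, up to 2 with the largest change. LHX1, NEFL and PECAM1 of the marker lists were not matched. A result for 1 gene of the cofactor list is not reported here.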

Additional observations from a re-analysis of the deposited data

How the results depend on the processing

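Depth, the single HCT116 E7 clone and the 2 libraries a group in HEK293 limit these results. The numbers of genes called changed most with the libraries left out. For E7 in HCT116 they ran from 1477 to 3087 when 1 replicate was left out, and were 79 against the 18qNE clones. For 18qNE they ran from 0 to 1, with 16 under no filter, 13 by DESeq2 and 3 with single libraries and day as a term. For 18qE they ran from 0 to 132, with 19 by DESeq2. For E7 in HEK293 they ran from 74 to 6210, with 463 by DESeq2 and 71 with both E7 libraries summed. HEK293 against HCT116 gave 3984 with the day D controls. The E7 effect between lines ran from 35 to 4701 and gave 1175 by DESeq2. Between control clones, leaving out a day gave 308 to 1694, and no filter gave 1959. Between days, leaving out a clone gave 2216 to 6368. The leave-outs of the last 3 comparisons were chosen after seeing the data. The cause of these shifts was not tested.

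Same-numbered samples did not deviate together in HCT116 (correlations of -0.19 to 0.09) and did in the 2 pairs of HEK293 (0.34), where the labels give no pairing. With the library number as a replicate block, 670 genes were called for E7 in HEK293, and with day as a replicate block over single HCT116 libraries 5178. The replicate block gave 0 for 18qNE and 0 for 18qE. For E7 in HCT116, SOX9 ranged from 1.33 to 1.84 and SOX12 from -0.97 to -0.53 over 12 alternatives, both called in 11. SOX13 ranged from 0.15 to 0.57.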

Other observations

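SOX30, a testis factor, differed between libraries of 1 control clone of HCT116. Control clone 2 had 91, 47 and 63 counts on days A, B and C (6.30, 3.53 and 4.82 CPM), while the other 3 control clones had 0 to 5 counts in each library of those days. The day D library of control clone 2 had 6 counts (0.261 CPM), and that of control clone 1 had 3 (0.121 CPM), so the higher level was not seen there. The E7 clone had 10 counts over 3 libraries. This gene was noticed after the values were seen. It was called in the test between the control clones over days A to C (edgeR adjusted p = 4.11e-07), where 7.89% of 14685 genes were called.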
